A study of Homo sapiens with 12 samples.

Results

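The transcriptional response of HepG2 cells to 8HQ alone, with no iron salt added, was measured against cells given DMSO, the solvent control. HepG2 is an established human hepatoma line that makes many liver plasma proteins. The comparison rests on 6 of the 12 RNA sequencing libraries, 3 from cells given 8HQ and 3 from cells given DMSO. The other 6 came from cells given 8HQ and FAC together (written 8HQ_FAC) or FAC alone, 3 each. They served to ask whether the change with 8HQ was the same where FAC was present. They also entered the choice of tested genes and the estimate of spread behind every p-value. All groups are the same unmodified line, and the labels put 10 µM and 6 h on every treatment without saying which agent the 10 µM measures, since the same words cover DMSO. The members are the genes with at least 1 FPKM (fragments or reads mapped to the gene, scaled for gene length and library depth) in at least 3 of the 12 libraries, chosen without regard to treatment. They were 10823 of the 20030 genes listed (54.0%), and the other 9207 were not tested.

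The letters are not spelled out in the labels. In work on iron, 8HQ usually stands for 8-hydroxyquinoline, a small aromatic molecule that binds metal ions and can carry them across membranes, and FAC for ferric ammonium citrate. Metal-binding and redox-active compounds are commonly followed in liver cells through the transcription factor NRF2 (gene NFE2L2). NRF2 is normally held by KEAP1, which hands it to a ubiquitin ligase for destruction. When cysteines of KEAP1 are modified, NRF2 accumulates, pairs with small MAF proteins and binds the antioxidant response element in front of genes for glutathione, thioredoxin, quinone reduction and NADPH supply. Metals are sensed separately, free zinc by MTF1, which drives the metallothioneins, and iron by proteins that act on ferritin and transferrin receptor transcripts and, in hepatocytes, on hepcidin (HAMP), the hormone that limits iron export.

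The libraries of the 2 groups were of similar depth, at 0.931 to 0.991 of the deepest library with 8HQ and 0.956 to 1 with DMSO. Depth was estimated from the steps between low FPKM values and came to about 18200000 to 19400000 mapped reads or fragments with 8HQ and 18700000 to 19600000 with DMSO. FPKM summed to 335641 to 341403 in the 8HQ libraries and 335508 to 339828 in the DMSO libraries. Hepatocyte transcripts were high in all 6, with albumin (ALB) at 4337, 4276 and 4325 FPKM with 8HQ and 4632, 4485 and 4433 FPKM with DMSO. The defining markers PTPRC of leukocytes, PECAM1 of endothelium and COL1A1 of fibroblasts were near 0, with PTPRC at 0.0934 to 0.138 FPKM with 8HQ and 0.0881 to 0.233 FPKM with DMSO. Other members of the leukocyte and fibroblast lists were not near 0. ACTA2 was at 33.8, 33.3 and 34.6 FPKM with 8HQ and 33.3, 33.4 and 33.4 FPKM with DMSO, which was nearly all of the fibroblast list, and CD68 at 32.03, 34.5 and 33.9 FPKM with 8HQ and 29.7, 32.1 and 31.8 FPKM with DMSO. The cholangiocyte and kidney list summed to 213 to 219 FPKM with 8HQ and 229 to 232 FPKM with DMSO. The leukocyte list summed to 1057 to 1084 FPKM with 8HQ and 1179 to 1221 FPKM with DMSO, nearly all of it lysozyme (LYZ), which was high in every library and fell with 8HQ (log2 difference -0.18, SE 0.03, adjusted p = 0.00107). A pair of libraries stood apart in globin: HBB was at 35.2, 6.97 and 1.52 FPKM in 8HQ replicates 1 to 3 and at 0.421, 1.41 and 9.70 FPKM in DMSO replicates 1 to 3. The 7 red blood cell markers summed to 41.4 FPKM in 8HQ replicate 1 and 15.4 FPKM in DMSO replicate 3, against 0.770 to 7.34 FPKM in the other 4. HBB was at 0 in all 6 libraries with FAC. HBA1 did not split so, at 0.901, 1.08 and 3.20 FPKM with 8HQ_FAC and 0.0949 to 0.531 FPKM with FAC alone. Without FAC it was at 0.182 to 1.22 FPKM. Some leukocyte markers split as HBB did. HLA-DRA was at 0.474 to 1.87 FPKM in the 6 libraries without FAC and at 0 in the 6 with it. S100A9 was at 0.678 to 2.38 FPKM without FAC and 0 to 0.342 FPKM with it. CD79A and ITGAM were instead highest with 8HQ_FAC. What these reads came from was not tested. The main counts are also given without 8HQ replicate 1 and DMSO replicate 3, which does not remove the split by FAC.

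Few genes differed between 8HQ and DMSO, and most of the differences were small. In a limma fit over all tested genes, 531 genes passed a Benjamini-Hochberg adjusted p under 0.05 (4.91% of those tested), which is what called means here. Of these, 270 were higher with 8HQ (2.49%) and 261 lower (2.41%). The median size of the change, as log2 of FPKM plus 1, was 0.24 among the genes called higher and 0.20 among those called lower, while the median difference over all tested genes was 0.01. Only 3 of the called genes reached a log2 difference of 1 (0.0277% of those tested), all higher with 8HQ, namely OSGIN1, SRXN1 and AKR1B10, with GCLM just under it, and 20 higher and 3 lower genes reached 0.5. The 3 values of each group did not overlap in 268 of the 270 genes called higher and in all 261 called lower, against 26.1% of all tested genes. At an unadjusted p under 0.05 there were 2145 genes (19.8%), the share against which counts at that p in the lists below are read. The fit took its spread from all 12 libraries. With only the 8HQ and DMSO libraries in the fit, 420 genes were called, 384 of them among the 531. Means below are given with the SD over the 3 libraries of a group, and log2 differences with their SE.

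Every one of the 531 kept its direction whichever of the 6 libraries was left out, but many lay close to the threshold. When 1 of the 6 was left out, the number called was 257 to 424, and 94 genes called higher and 96 called lower were called in all 6 of those fits. Without DMSO replicate 1, 257 genes were called, without 8HQ replicate 3, 289, without 8HQ replicate 1, 301, without DMSO replicate 2, 325, and without 8HQ replicate 2, 338. Without 8HQ replicate 1 and DMSO replicate 3 together, 231 genes passed, with 117 higher and 114 lower, and 206 of these were among the 531. The libraries were not said to come from separate cultures, so the p-values measure only the spread between these samples. In bulk RNA, fewer cells of a type and less RNA per cell cannot be told apart.

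**Figure D1:**
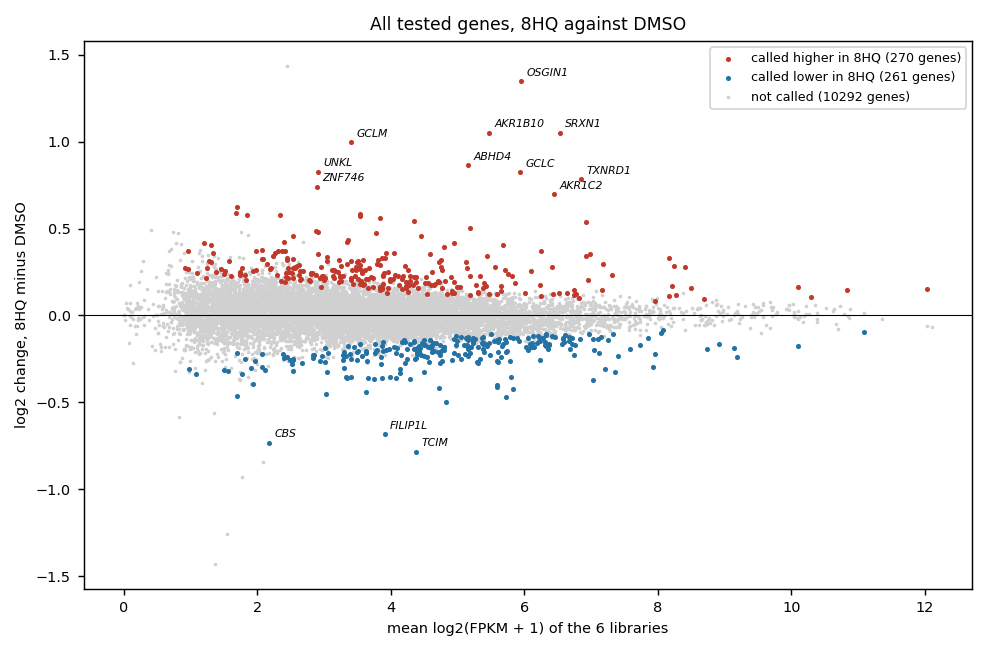
Each point is 1 of the 10823 tested genes, placed by its mean log2(FPKM + 1) over the 6 libraries and its log2 difference, 8HQ minus DMSO. Red points are the 270 genes called higher with 8HQ and blue the 261 called lower, and the named genes are those at the ends. Most points lie close to 0, and among called genes the rises reach farther than the falls, with OSGIN1 at 1.35 and TCIM at -0.78. The grey points farthest from 0 are genes that were not called, such as HBB.

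Most of the 10 genes that rose most are on the list of NRF2 targets, so stretches of promoters of such genes are shown first. The core of the antioxidant response element was searched as TGACNNNGC or TGAGNNNGC on both strands of the window from 250 bases before to 50 after each gene start, in the RefSeq promoters of build GRCh38.p14. The 2 forms differ in 1 base and cannot match at the same place on 1 strand. Of 10823 tested genes, 8950 had a promoter in the table. The core was present in 33.1% of those promoters, so a match is common. It was present in 39.7% of the 219 promoters of genes called higher and in 31.6% of the 206 of genes called lower. Among called NRF2 targets it was in 45% of the 20 promoters (9 genes). It was in 8 of the 13 promoters found for the 15 largest rises and in 4 of the 10 found for the 15 largest falls. These shares were not tested, and a match does not show binding.

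The 150 bases before the start of 6 genes called higher, each with a match in this stretch, are given below 5′ to 3′ in the direction of the gene, in lower case with the match in capitals. OSGIN1 (NCBI GeneID 29948) rose most, and its stretch is chr16:83953090-83953239 on the plus strand. GCLM (GeneID 2730) and TXNRD1 (GeneID 7296) carry the glutathione and thioredoxin results, with stretches at chr1:93909431-93909580 on the minus strand and chr12:104215629-104215778 on the plus strand. NQO1 (GeneID 1728), the usual marker of NRF2 activity, is shown from chr16:69726561-69726710 on the minus strand. AKR1C2 (GeneID 1646, chr10:5003858-5004007, minus strand) and AKR1C1 (GeneID 1645, chr10:4963265-4963414, plus strand) are near copies of each other. Reads of such copies may have been split in a way the files do not show, so the values of the single AKR1C genes are uncertain.
OSGIN1: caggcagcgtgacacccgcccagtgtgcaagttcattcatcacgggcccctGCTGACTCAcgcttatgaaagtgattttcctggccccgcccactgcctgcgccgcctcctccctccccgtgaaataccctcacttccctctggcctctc
GCLM: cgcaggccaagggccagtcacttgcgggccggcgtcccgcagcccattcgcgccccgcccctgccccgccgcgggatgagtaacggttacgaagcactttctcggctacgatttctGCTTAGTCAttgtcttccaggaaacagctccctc
TXNRD1: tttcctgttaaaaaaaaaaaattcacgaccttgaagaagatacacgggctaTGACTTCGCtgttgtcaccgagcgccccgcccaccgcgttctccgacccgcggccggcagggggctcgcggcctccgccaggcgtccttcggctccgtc
NQO1: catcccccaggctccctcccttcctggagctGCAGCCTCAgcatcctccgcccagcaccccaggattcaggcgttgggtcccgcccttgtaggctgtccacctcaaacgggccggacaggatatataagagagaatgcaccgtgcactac
AKR1C2: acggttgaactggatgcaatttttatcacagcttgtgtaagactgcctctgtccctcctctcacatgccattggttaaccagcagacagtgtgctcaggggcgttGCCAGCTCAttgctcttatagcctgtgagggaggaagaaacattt
AKR1C1: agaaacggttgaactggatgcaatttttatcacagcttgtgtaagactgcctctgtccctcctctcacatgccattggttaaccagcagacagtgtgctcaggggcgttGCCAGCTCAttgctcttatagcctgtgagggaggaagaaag
The match begins 99 bases before the start in OSGIN1 and TXNRD1, 34 in GCLM, 119 in NQO1, 45 in AKR1C2 and 41 in AKR1C1.

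NRF2 targets rose as a group. Of 33 genes on the list, 32 were tested (ME1 was too low), and 25 were called higher with 8HQ and none lower, where 2.49% of all tested genes were called higher. At an unadjusted p under 0.05, 30 were higher and 0 lower. The median log2 difference of the 32 was 0.31, beside 0.01 over all tested genes, and in 30 of them the groups did not overlap (26.1% of all tested genes). The list was drawn up with earlier results of these data known, so its count is not independent evidence of its direction. Between 23 and 26 members were called higher in each fit that left out 1 of the 6 libraries, 23 of the 25 were called in all 6 such fits, and 23 members were called without 8HQ replicate 1 and DMSO replicate 3. SLC48A1 was not called without 8HQ replicate 1, 8HQ replicate 3, DMSO replicate 1, DMSO replicate 2 or DMSO replicate 3, with adjusted p up to 0.152, and PGD not without 8HQ replicate 2, 8HQ replicate 3, DMSO replicate 2 or DMSO replicate 3, with adjusted p up to 0.102.

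OSGIN1, a growth inhibitor induced by oxidative stress, had 99.3, 97.3 and 96.6 FPKM in the 8HQ libraries, against 37.2, 38.9 and 37.5 FPKM in the DMSO libraries. All 3 values with 8HQ were well above every DMSO value, and the ratio of the means was 2.58 (log2 difference 1.35, SE 0.05, adjusted p = 6.63e-10). No other called gene rose as much.

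The genes of glutathione supply moved in both directions. GCLM, the modifier subunit of glutamate-cysteine ligase, the rate-limiting enzyme of glutathione synthesis, had 14.3, 13.9 and 13.8 FPKM in the 8HQ libraries, against 6.46, 6.37 and 6.73 FPKM in the DMSO libraries. The groups lay far apart, and the ratio of the means was 2.15 (log2 difference 0.996, SE 0.05, adjusted p = 4.03e-08). GCLC, the catalytic subunit of the same enzyme, had 82.98, 77.1 and 80.6 FPKM in the 8HQ libraries, against 46.9, 44.03 and 43.9 FPKM in the DMSO libraries. It was higher in every 8HQ library (log2 difference 0.82, SE 0.05, adjusted p = 1.96e-07). GSR, which reduces oxidised glutathione, averaged 85.8 ± 1.45 FPKM with 8HQ and 66.1 ± 0.895 FPKM with DMSO (log2 difference 0.37, SE 0.03, adjusted p = 1.79e-06). GPX2, a glutathione peroxidase, rose by a smaller step (log2 difference 0.16, SE 0.03, adjusted p = 0.00260) and was not called after quantile normalization (log2 difference 0.094, adjusted p = 0.0555).

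CBS, which makes cystathionine from homocysteine on the way to cysteine, fell: it had 2.24, 2.30 and 3.01 FPKM in the 8HQ libraries, against 5.41, 4.49 and 4.59 FPKM in the DMSO libraries. The groups did not overlap (log2 difference -0.73, SE 0.11, adjusted p = 0.00170). CBS has a near-identical copy in the reference genome, so its level is uncertain. Of 17 tested genes of glutathione synthesis and use, these 4 rose and CBS fell (29.4% called, against 4.91% of all tested genes), and 12 were not called. SLC7A11, the cystine carrier that feeds this pathway, had 14.3, 13.9 and 13.2 FPKM in the 8HQ libraries, against 11.7, 12.1 and 12.3 FPKM in the DMSO libraries. The groups did not overlap, but the gene was not called (log2 difference 0.19, SE 0.07, adjusted p = 0.135). None of 12 tested glutathione S-transferases, which attach glutathione to foreign compounds, was called by limma in either direction, and at an unadjusted p under 0.05 there were 3 higher and 1 lower.

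In the thioredoxin system 2 of 15 tested genes were called (13.3%, against 4.91% of all tested genes). SRXN1, sulfiredoxin, which repairs over-oxidised peroxiredoxins, had 132, 129.7 and 134 FPKM in the 8HQ libraries, against 61.4, 64.96 and 62.8 FPKM in the DMSO libraries. The ratio of the means was 2.09 with no overlap (log2 difference 1.05, SE 0.05, adjusted p = 6.46e-09). TXNRD1, the cytosolic thioredoxin reductase, had 152, 149 and 151 FPKM in the 8HQ libraries, against 86.4, 86.7 and 88.4 FPKM in the DMSO libraries. Its 3 values with 8HQ were all above the 3 with DMSO (log2 difference 0.78, SE 0.03, adjusted p = 3.20e-09). Thioredoxin itself (TXN) and peroxiredoxin PRDX1 were not called, at log2 differences of 0.11 (adjusted p = 0.0564) and 0.06 (adjusted p = 0.262).

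Enzymes that reduce carbonyls and quinones showed 8 of 16 tested members called higher and none lower (50%, against 2.49% of all tested genes called higher). Their median log2 difference was 0.20. The same number of rises was called in each fit with 1 of the 6 libraries left out. AKR1B10, an aldo-keto reductase that reduces retinal and reactive aldehydes, had 61.2, 61.9 and 66.03 FPKM in the 8HQ libraries, against 30.4, 30.004 and 29.3 FPKM in the DMSO libraries. The ratio of the means was 2.11 (log2 difference 1.05, SE 0.04, adjusted p = 1.95e-09). AKR1C2, which reduces steroids, had 111, 107 and 112 FPKM in the 8HQ libraries, against 70.9, 65.9 and 65.98 FPKM in the DMSO libraries. All 3 values with 8HQ were higher (log2 difference 0.70, SE 0.05, adjusted p = 1.38e-06), as were those of its relatives AKR1C3 (log2 difference 0.35, SE 0.03, adjusted p = 1.49e-05) and AKR1C1 (log2 difference 0.33, SE 0.06, adjusted p = 0.00390), read with the limit on near copies given above. NQO1, the quinone reductase, had 334, 332 and 333 FPKM in the 8HQ libraries, against 279.7, 269 and 271 FPKM in the DMSO libraries. The step was small, and the groups did not overlap (log2 difference 0.28, SE 0.02, adjusted p = 2.66e-06). PTGR1, which reduces prostaglandins and unsaturated aldehydes, had 14.5, 15.1 and 15.7 FPKM with 8HQ and 10.8, 10.1 and 10.8 FPKM with DMSO (log2 difference 0.48, SE 0.06, adjusted p = 0.000309). EPHX1, the microsomal epoxide hydrolase, averaged 74.3 ± 2.46 FPKM with 8HQ and 62.1 ± 1.86 FPKM with DMSO (log2 difference 0.26, SE 0.03, adjusted p = 0.000153).

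NADPH, which these reductases spend, is made by the pentose phosphate pathway and related enzymes. Of 11 tested genes 4 were called higher (36.4%, against 2.49% of all tested genes). Transketolase (TKT) and transaldolase (TALDO1), of the non-oxidative branch, had log2 differences of 0.21 (adjusted p = 0.000242) and 0.23 (adjusted p = 0.000975). ALDH1L1, which makes NADPH from a folate, had 10.8, 10.4 and 11.1 FPKM with 8HQ and 8.10, 8.67 and 8.68 FPKM with DMSO (log2 difference 0.31, SE 0.04, adjusted p = 0.000391). PGD, of the oxidative branch, averaged 113 ± 3.23 FPKM with 8HQ and 104 ± 1.70 FPKM with DMSO (log2 difference 0.13, SE 0.03, adjusted p = 0.0227), and was not called without 8HQ replicate 2, 8HQ replicate 3, DMSO replicate 2 or DMSO replicate 3 (adjusted p up to 0.102).

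Of 9 tested export pumps 2 were called (22.2%, against 4.91% of all tested genes), both exporters of conjugates such as glucuronides. ABCC3, on the blood side, had 16.2, 16.3 and 16.5 FPKM in the 8HQ libraries, against 11.9, 12.9 and 12.7 FPKM in the DMSO libraries (log2 difference 0.36, SE 0.04, adjusted p = 9.87e-05). ABCC2, on the bile side, had 136, 137 and 133 FPKM with 8HQ and 106, 106 and 108 FPKM with DMSO (log2 difference 0.34, SE 0.04, adjusted p = 0.000130). Both were higher in every 8HQ library. ABHD4, a lipid hydrolase on the NRF2 list, had 46.1, 47.3 and 48.02 FPKM in the 8HQ libraries, against 24.8, 27.5 and 24.1 FPKM in the DMSO libraries, a ratio of 1.85 with no overlap (log2 difference 0.86, SE 0.05, adjusted p = 7.02e-08).

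The genes that control NRF2 moved less, with 3 higher and 1 lower of 13 tested (30.8% called, against 4.91% of all tested genes). SQSTM1 (p62), which binds KEAP1 and is itself an NRF2 target, had 144, 147 and 147 FPKM in the 8HQ libraries, against 102, 98.8 and 99.7 FPKM in the DMSO libraries. It was higher in all 3 (log2 difference 0.54, SE 0.03, adjusted p = 5.27e-08). KEAP1 averaged 37.9 ± 1.49 FPKM with 8HQ and 31.2 ± 0.339 FPKM with DMSO (log2 difference 0.27, SE 0.05, adjusted p = 0.00294), and the small MAF gene MAFG 31.2 ± 0.894 FPKM with 8HQ and 26.6 ± 1.30 FPKM with DMSO (log2 difference 0.22, SE 0.06, adjusted p = 0.0311). NFE2L2, which encodes NRF2, was lower, at 95.4, 96.95 and 94.1 FPKM in the 8HQ libraries, against 113, 108 and 107 FPKM in the DMSO libraries (log2 difference -0.19, SE 0.04, adjusted p = 0.0119). MAFG was not called without 8HQ replicate 1, 8HQ replicate 2, 8HQ replicate 3, DMSO replicate 1 or DMSO replicate 2 (adjusted p up to 0.110), and NFE2L2 not without 8HQ replicate 3 or DMSO replicate 1 (adjusted p up to 0.0610). The protein level of NRF2 was not measured here.

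**Figure D2:**
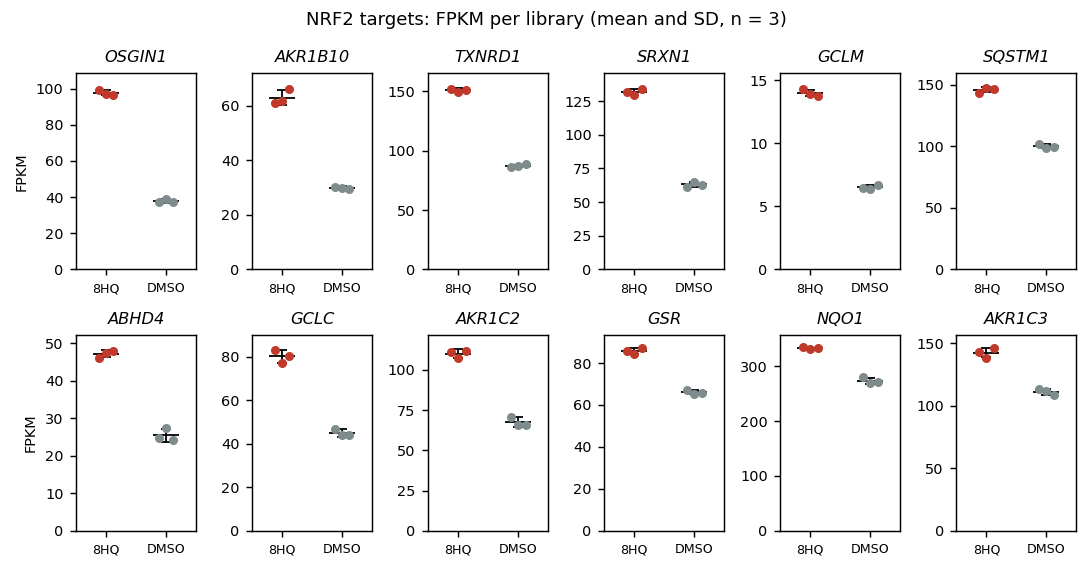
FPKM of the 12 called NRF2 targets with the smallest adjusted p in each of the 3 8HQ libraries (left, red) and the 3 DMSO libraries (right, grey), with the mean and SD. Every axis starts at 0, and in all 12 genes the groups do not overlap, from OSGIN1 with a ratio of 2.58 to NQO1 with 1.22.

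Several of the 15 largest rises were not on that list. ZNF746 (PARIS), a zinc finger repressor, had 8.99, 8.39 and 8.47 FPKM in the 8HQ libraries, against 4.87, 4.35 and 5.07 FPKM in the DMSO libraries, without overlap (log2 difference 0.74, SE 0.06, adjusted p = 6.46e-06). UNKL, a zinc finger gene, had 8.70, 8.83 and 9.45 FPKM with 8HQ and 4.59, 4.55 and 4.78 FPKM with DMSO (log2 difference 0.83, SE 0.05, adjusted p = 2.56e-07). GCNT3, an enzyme that branches mucin sugars, had 13.4, 13.5 and 12.7 FPKM with 8HQ and 7.95, 9.14 and 8.32 FPKM with DMSO (log2 difference 0.58, SE 0.06, adjusted p = 2.93e-05). All 3 genes were higher in every 8HQ library. SMPX, a small muscle protein, averaged 2.92 ± 0.239 FPKM with 8HQ and 1.61 ± 0.268 FPKM with DMSO (log2 difference 0.59, SE 0.10, adjusted p = 0.00313). SDHAF4, an assembly factor of succinate dehydrogenase, was low, at 2.91, 3.45 and 2.77 FPKM with 8HQ and 1.71, 1.05 and 2.21 FPKM with DMSO (log2 difference 0.63, SE 0.14, adjusted p = 0.0163), and was not called without 8HQ replicate 2 or DMSO replicate 2 (adjusted p up to 0.0688). EEF1AKMT4, a methyltransferase of translation factor eEF1A, averaged 3.41 ± 0.396 FPKM with 8HQ and 1.95 ± 0.163 FPKM with DMSO (log2 difference 0.58, SE 0.10, adjusted p = 0.00349), and since it shares a locus and a readthrough transcript with ECE2, its reads may not all be its own.

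Metal-responsive genes moved by small steps. Of 9 tested metallothioneins and MTF1 genes, 4 were called higher and none lower (44.4%, against 2.49% of all tested genes called higher). The median log2 difference was 0.26. SLC30A1, which exports zinc from the cell and is driven by MTF1, had 29.6, 28.2 and 28.3 FPKM in the 8HQ libraries, against 23.5, 24.6 and 23.1 FPKM in the DMSO libraries. The groups did not overlap (log2 difference 0.26, SE 0.05, adjusted p = 0.0119). The metal-binding MT1E had 38.8, 40.7 and 34.6 FPKM with 8HQ and 33.5, 28.7 and 29.5 FPKM with DMSO (log2 difference 0.30, SE 0.06, adjusted p = 0.0132), MT1F 13.7, 14.98 and 17.7 FPKM with 8HQ and 11.4, 11.7 and 13.1 FPKM with DMSO (log2 difference 0.33, SE 0.08, adjusted p = 0.0271) and MT1G 27.7, 29.4 and 27.8 FPKM with 8HQ and 23.4, 24.1 and 20.5 FPKM with DMSO (log2 difference 0.31, SE 0.08, adjusted p = 0.0273). In all 3 the groups did not overlap. MT2A, the most abundant member, had 129, 160.1 and 132 FPKM in the 8HQ libraries, against 125, 133 and 123 FPKM in the DMSO libraries. Its groups overlapped and the gene was not called (log2 difference 0.14, SE 0.06, adjusted p = 0.224), nor was MT1X (log2 difference 0.21, SE 0.10, adjusted p = 0.272).

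These calls were fragile: between 1 and 3 of the 9 genes were called in each fit that left out 1 of the 6 libraries, and 1 without 8HQ replicate 1 and DMSO replicate 3. In the fit without 8HQ replicate 1 and in the one without both libraries, 1 member was also called lower. With all libraries, MT1A was the 1 member with a negative difference (log2 difference -0.24) and was not called. It had 2.15, 1.34 and 0.989 FPKM with 8HQ and 1.998, 1.95 and 1.73 FPKM with DMSO, with overlap. SLC30A1 was not called without 8HQ replicate 1 or DMSO replicate 1 (adjusted p up to 0.0545). MT1E was not called without 8HQ replicate 1, 8HQ replicate 2 or DMSO replicate 2 (up to 0.0624), MT1F not without 8HQ replicate 2, 8HQ replicate 3, DMSO replicate 1 or DMSO replicate 2 (up to 0.117) and MT1G not without 8HQ replicate 1, 8HQ replicate 2, 8HQ replicate 3, DMSO replicate 1 or DMSO replicate 3 (up to 0.103). The metallothionein genes are also close copies of one another, so reads may have been shared between them. The core of the metal response element, searched on both strands as TGCACNC or TGCGCNC, was present in 39.2% of the 8950 promoters, among them those of SLC30A1, MT2A and MT1X. It was also in 10 of the 20 promoters of called NRF2 targets (50%). SLC30A1, which was called higher, is shown from chr1:211579162-211579311 on the minus strand, and MT2A, which was not, from chr16:56608434-56608583 on the plus strand, in the same way with the matches in capitals.
SLC30A1: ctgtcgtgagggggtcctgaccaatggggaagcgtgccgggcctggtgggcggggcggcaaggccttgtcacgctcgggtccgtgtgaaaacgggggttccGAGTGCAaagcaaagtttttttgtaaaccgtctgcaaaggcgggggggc
MT2A: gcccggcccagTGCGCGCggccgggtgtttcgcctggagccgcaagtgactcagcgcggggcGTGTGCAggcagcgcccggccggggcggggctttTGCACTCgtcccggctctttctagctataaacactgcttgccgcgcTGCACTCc
SLC30A1 holds 1 match in this stretch and MT2A holds 4.

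Of 17 tested zinc transporters 3 were called (17.6%, against 4.91% of all genes), where SLC30A1 was higher, and the importers SLC39A14 (log2 difference -0.14, SE 0.03, adjusted p = 0.00970) and SLC39A10 (log2 difference -0.21, SE 0.06, adjusted p = 0.0463) were lower. SLC39A10 was not called in any of the 6 fits with 1 library left out (adjusted p up to 0.172). None of 16 copper genes was called by limma, with 2 higher and 2 lower at an unadjusted p under 0.05.

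Among 23 tested genes of iron uptake, storage and export, 5 rose (FTL, FTH1, FBXL5, SLC25A28 and HAMP) and 1 fell (SLC39A14, which carries iron as well as zinc). The share called was 26.1%, against 4.91% of all tested genes, and the median log2 difference was 0.02. Ferritin heavy chain (FTH1), which stores iron and is also an NRF2 target, had 1896, 1922 and 1919 FPKM in the 8HQ libraries, against 1769, 1719 and 1701 FPKM in the DMSO libraries. Ferritin light chain (FTL) had 4383, 4466 and 4453 FPKM in the 8HQ libraries, against 4079.6, 4029.9 and 3871 FPKM in the DMSO libraries. Each step was small beside the level but larger than the spread, with no overlap (FTH1 log2 difference 0.14, SE 0.02, adjusted p = 0.00326, FTL log2 difference 0.15, SE 0.02, adjusted p = 0.000623). After quantile normalization the difference of FTL was 0.27. TFRC, the transferrin receptor, whose transcript is stabilised when iron is scarce, had 66.8, 66.6 and 65.02 FPKM in the 8HQ libraries, against 65.05, 63.8 and 66.6 FPKM in the DMSO libraries. Its groups overlapped, and the difference of 0.02 had a 95% interval of -0.06 to 0.10 (adjusted p = 0.792). SLC40A1, ferroportin, which exports iron, had 26.5, 29.2 and 26.8 FPKM in the 8HQ libraries, against 25.5, 23.1 and 24.3 FPKM in the DMSO libraries, without overlap, and was not called (log2 difference 0.17, SE 0.05, adjusted p = 0.0540). FBXL5, which senses iron and marks IRP2 for destruction, averaged 11.1 ± 0.645 FPKM with 8HQ and 9.12 ± 0.243 FPKM with DMSO (log2 difference 0.26, SE 0.04, adjusted p = 0.00326). SLC25A28, a mitochondrial iron carrier, averaged 7.46 ± 0.00718 FPKM with 8HQ and 5.62 ± 0.434 FPKM with DMSO (log2 difference 0.36, SE 0.07, adjusted p = 0.0125), and was not called without DMSO replicate 3 (adjusted p = 0.0527).

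HAMP, hepcidin, had 5.40, 5.25 and 4.85 FPKM in the 8HQ libraries, against 3.95, 3.29 and 2.34 FPKM in the DMSO libraries. All 3 values with 8HQ were higher than every DMSO value, at a ratio of 1.62 (log2 difference 0.58, SE 0.13, adjusted p = 0.0186), but the DMSO values spread widely. HAMP was not called without 8HQ replicate 1, 8HQ replicate 2 or DMSO replicate 3, with adjusted p up to 0.0645, nor with a pseudocount of 0.1 or with no filter on low values. ID1 and SMAD7, which rise with HAMP when BMP signals through SMAD proteins, were not called: ID1 averaged 40.7 ± 0.543 FPKM with 8HQ and 42.4 ± 1.26 FPKM with DMSO (log2 difference -0.05, SE 0.04, adjusted p = 0.432), and SMAD7 5.55 ± 0.0728 FPKM with 8HQ and 5.14 ± 0.332 FPKM with DMSO (log2 difference 0.09, SE 0.06, adjusted p = 0.390). Of 18 tested genes of BMP-SMAD signalling 11.1% were called, against 4.91% of all tested genes. HAMP was called higher and the ligand BMP4 lower, at 48.5, 49.6 and 50.3 FPKM in the 8HQ libraries, against 58.8, 58.1 and 61.7 FPKM in the DMSO libraries (log2 difference -0.26, SE 0.04, adjusted p = 0.00219).

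Heme synthesis gave 3 called of 11 tested, all higher (27.3%, against 2.49% of all tested genes called higher). ALAS1, the rate-limiting enzyme, had 29.4, 29.1 and 27.7 FPKM in the 8HQ libraries, against 23.6, 23.8 and 23.1 FPKM in the DMSO libraries. The groups did not overlap (log2 difference 0.28, SE 0.04, adjusted p = 0.000364). ABCB6, a porphyrin carrier, averaged 48.1 ± 2.29 FPKM with 8HQ and 37.7 ± 1.68 FPKM with DMSO (log2 difference 0.34, SE 0.05, adjusted p = 0.000416), and FECH, which puts iron into heme, 5.78 ± 0.216 FPKM with 8HQ and 4.67 ± 0.171 FPKM with DMSO (log2 difference 0.26, SE 0.06, adjusted p = 0.0142). FECH was not called without 8HQ replicate 1 or DMSO replicate 1 (adjusted p up to 0.0676). HMOX1, the oxygenase that opens the heme ring and frees the iron in it, had 41.95, 40.3 and 44.9 FPKM in the 8HQ libraries, against 30.02, 29.7 and 28.9 FPKM in the DMSO libraries. It was higher in every 8HQ library, at a ratio of 1.43 (log2 difference 0.50, SE 0.05, adjusted p = 1.89e-05). Of 10 tested genes of heme breakdown and transport, HMOX1 and the heme carrier SLC48A1 (log2 difference 0.27, SE 0.07, adjusted p = 0.0375) were called (20%). SLC48A1 was called in only 1 of the 6 fits with a library left out, the one without 8HQ replicate 2 (adjusted p up to 0.152).

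**Figure D3:**
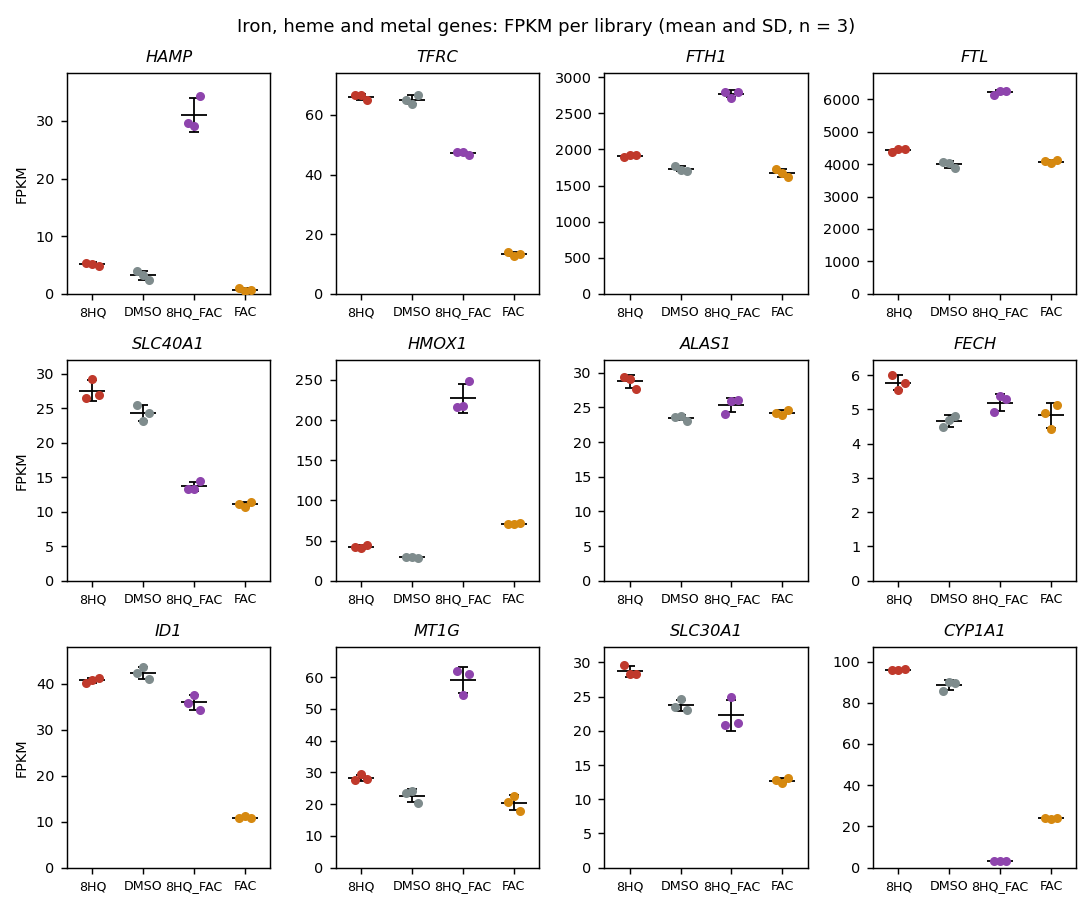
FPKM per library of 12 genes of iron, heme and metal handling in the 8HQ, DMSO, 8HQ_FAC and FAC groups, with the mean and SD (n = 3). The step in FPKM between 8HQ and DMSO is smaller than that between 8HQ_FAC and FAC in HAMP, HMOX1, MT1G, TFRC, ID1, CYP1A1, FTH1, FTL and SLC30A1. HAMP reached 29.7, 29.05 and 34.4 FPKM with 8HQ_FAC and 1.02, 0.456 and 0.587 FPKM with FAC.

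Among genes of iron-sulfur enzymes and iron-dependent dioxygenases, the share called was near the 4.91% of all tested genes. Of 26 tested genes of iron-sulfur cluster assembly 1 was called (3.85%), GLRX5, which passes on finished clusters, and it was lower (log2 difference -0.13, SE 0.03, adjusted p = 0.0200). Of 31 tested dioxygenases that use iron and 2-oxoglutarate, the histone demethylases KDM2A (log2 difference 0.20, SE 0.05, adjusted p = 0.0197) and KDM7A (log2 difference -0.21, SE 0.05, adjusted p = 0.0372) were called (6.45%), in opposite directions. The targets of HIF, which such dioxygenases restrain, gave 4 higher and 3 lower of 37 tested (18.9% called), with a median log2 difference of 0.01. The glucose carrier SLC2A1 fell (log2 difference -0.23, SE 0.03, adjusted p = 0.000200), as did hexokinase HK2 (log2 difference -0.20, SE 0.04, adjusted p = 0.0163) and INSIG2, a brake on sterol synthesis (log2 difference -0.19, SE 0.05, adjusted p = 0.0249). The glycolytic enzymes ALDOA (log2 difference 0.12, SE 0.02, adjusted p = 0.00560), GAPDH (log2 difference 0.10, SE 0.02, adjusted p = 0.0191) and GPI (log2 difference 0.12, SE 0.03, adjusted p = 0.0262) and the secreted protein STC2 (log2 difference 0.16, SE 0.04, adjusted p = 0.0191) rose by small steps. NDRG1, a transcript that iron removal commonly raises, had 9.87, 10.98 and 10.9 FPKM in the 8HQ libraries, against 10.8, 10.6 and 10.4 FPKM in the DMSO libraries, with overlap (log2 difference 0.00, SE 0.05, adjusted p = 0.988). SLC2A1 and ALDOA were called in every fit with 1 of the 6 libraries left out. ALDOA was not called after quantile normalization (log2 difference 0.032, adjusted p = 0.485) or without the intensity trend (adjusted p = 0.0528), and GAPDH was not called after quantile normalization (log2 difference 0.045, adjusted p = 0.207). GLRX5 was not called without 8HQ replicate 1, 8HQ replicate 3, DMSO replicate 1 or DMSO replicate 3 (adjusted p up to 0.0877), and KDM2A was not called without 8HQ replicate 1, 8HQ replicate 2, DMSO replicate 1 or DMSO replicate 2 (adjusted p up to 0.0897). KDM7A was called in none of the 6 (adjusted p up to 0.134), and HK2 was not called without 8HQ replicate 3 or DMSO replicate 3 (adjusted p up to 0.0702). INSIG2 was called only without DMSO replicate 2 (adjusted p up to 0.0896), and GAPDH was not called without 8HQ replicate 3 or DMSO replicate 1 (adjusted p up to 0.0794). GPI was called only without 8HQ replicate 1 (adjusted p up to 0.114), and STC2 was not called without 8HQ replicate 1, 8HQ replicate 3, DMSO replicate 1 or DMSO replicate 2 (adjusted p up to 0.0870). The core of the HIF element, ACGTG on either strand, was in 21.0% of the promoters of genes called higher, 27.2% of those called lower and 27.4% of all.

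The largest falls were smaller than the largest rises. TCIM, a small protein linked to WNT signalling, had 13.9, 15.03 and 15.6 FPKM in the 8HQ libraries, against 26.8, 25.4 and 26.5 FPKM in the DMSO libraries. The 8HQ values were all lower, at a ratio of 0.565 (log2 difference -0.78, SE 0.10, adjusted p = 0.000209). FILIP1L, named for its likeness to a filamin-binding protein, had 10.9, 10.6 and 10.98 FPKM in the 8HQ libraries, against 18.2, 18.6 and 17.3 FPKM in the DMSO libraries, again without overlap (log2 difference -0.68, SE 0.05, adjusted p = 3.06e-07). ANKRD1, an ankyrin repeat protein and a common readout of YAP activity, had 22.6, 23.2 and 22.9 FPKM in the 8HQ libraries, against 34.1, 32.5 and 31.6 FPKM in the DMSO libraries (log2 difference -0.50, SE 0.06, adjusted p = 0.000309). DEPP1, a FOXO target, averaged 43.8 ± 0.919 FPKM with 8HQ and 61.02 ± 0.169 FPKM with DMSO (log2 difference -0.47, SE 0.06, adjusted p = 0.000328). DKK1, a secreted inhibitor of WNT signalling, had 38.3, 41.7 and 43.02 FPKM in the 8HQ libraries, against 55.4, 53.7 and 54.1 FPKM in the DMSO libraries, without overlap (log2 difference -0.40, SE 0.04, adjusted p = 4.90e-05). Claudin CLDN1 of tight junctions (log2 difference -0.42, SE 0.03, adjusted p = 2.91e-06), the keratin KRT23 (log2 difference -0.42, SE 0.04, adjusted p = 4.05e-05), the Kelch protein ENC1 (log2 difference -0.41, SE 0.03, adjusted p = 2.66e-06), the lysophosphatidic acid receptor LPAR6 (log2 difference -0.45, SE 0.05, adjusted p = 0.000150) and the homeobox factor IRX3 (log2 difference -0.44, SE 0.08, adjusted p = 0.00367) fell by similar amounts.

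The remaining members of the 15 largest falls were low or less even. EDN1, endothelin, had 1.59, 2.29 and 1.44 FPKM in the 8HQ libraries, against 2.93, 2.87 and 2.59 FPKM in the DMSO libraries (log2 difference -0.46, SE 0.11, adjusted p = 0.0254), and it was not called without 8HQ replicate 1, 8HQ replicate 3, DMSO replicate 1 or DMSO replicate 2 (adjusted p up to 0.116). NAGS, which makes the activator of the urea cycle, had 1.95, 2.43 and 2.64 FPKM with 8HQ and 3.19, 3.57 and 3.35 FPKM with DMSO (log2 difference -0.39, SE 0.08, adjusted p = 0.0132), and was not called without 8HQ replicate 1 or DMSO replicate 2 (adjusted p up to 0.0591). LOC101927345 had 13.7, 19.6 and 15.8 FPKM with 8HQ and 21.04, 21.4 and 21.2 FPKM with DMSO (log2 difference -0.37, SE 0.10, adjusted p = 0.0427), and was called in 1 of the 6 fits with a library left out, the one without 8HQ replicate 2 (adjusted p up to 0.148).

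Immediate early genes, which are switched on within minutes of growth factor signals, were mostly on the lower side. Of 19 tested, 15 had a negative difference, and the median log2 difference was -0.11. Of the 19, 5 were called lower and 1 higher (31.6% called, against 4.91% of all tested genes). IER3 had 109, 114 and 119 FPKM in the 8HQ libraries, against 149.8, 149 and 145 FPKM in the DMSO libraries, without overlap (log2 difference -0.37, SE 0.04, adjusted p = 5.98e-05). EGR1 had 17.8, 18.1 and 18.4 FPKM in the 8HQ libraries, against 22.3, 22.4 and 20.1 FPKM in the DMSO libraries (log2 difference -0.24, SE 0.05, adjusted p = 0.0132), and KLF6 averaged 27.6 ± 0.946 FPKM with 8HQ and 32.3 ± 0.585 FPKM with DMSO (log2 difference -0.22, SE 0.03, adjusted p = 0.00186). NR4A1, an orphan nuclear receptor, also fell (log2 difference -0.34, SE 0.07, adjusted p = 0.0148), as did IER2 (log2 difference -0.21, SE 0.06, adjusted p = 0.0449). MYC went the other way, with 55.7, 56.1 and 57.3 FPKM in the 8HQ libraries, against 47.4, 47.9 and 45.3 FPKM in the DMSO libraries, also without overlap (log2 difference 0.26, SE 0.03, adjusted p = 0.000246). FOS, the classic member, had 2.49, 2.61 and 2.54 FPKM in the 8HQ libraries, against 2.52, 2.92 and 2.25 FPKM in the DMSO libraries and was not called (log2 difference 0.00, SE 0.11, adjusted p = 0.998). The list had 2 to 5 members called lower in the fits with 1 of the 6 libraries left out. Of those named, EGR1 was not called without 8HQ replicate 1, DMSO replicate 1 or DMSO replicate 2 (adjusted p up to 0.0644), NR4A1 not without 8HQ replicate 1 or DMSO replicate 1 (adjusted p up to 0.0724), and IER2 not in any of them (adjusted p up to 0.142).

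Feedback genes of the ERK pathway, which report its activity, gave 3 lower and none higher of 14 tested (21.4%, against 2.41% of all tested genes called lower). There were also 3 lower in each fit with 1 of the 6 libraries left out. DUSP6, the phosphatase that switches ERK off, had 48.7, 48.6 and 47.2 FPKM in the 8HQ libraries, against 63.2, 63.4 and 58.8 FPKM in the DMSO libraries. The groups did not overlap (log2 difference -0.35, SE 0.05, adjusted p = 0.000645). SPRY1, an inhibitor of receptor signalling, had 8.12, 9.08 and 7.87 FPKM with 8HQ and 11.1, 10.7 and 10.99 FPKM with DMSO (log2 difference -0.35, SE 0.05, adjusted p = 0.00118), and PHLDA1 averaged 19.8 ± 0.299 FPKM with 8HQ and 23.4 ± 0.451 FPKM with DMSO (log2 difference -0.23, SE 0.04, adjusted p = 0.00503). At an unadjusted p under 0.05, 8 of the 14 were lower and 1 higher, where 19.8% of all tested genes passed in either direction. HBEGF, a ligand of the EGF receptor, was low, at 1.30, 1.92 and 1.76 FPKM with 8HQ and 2.30, 2.08 and 2.51 FPKM with DMSO (log2 difference -0.32, SE 0.09, adjusted p = 0.0496), and was not called without 8HQ replicate 1, 8HQ replicate 3, DMSO replicate 1, DMSO replicate 2 or DMSO replicate 3 (adjusted p up to 0.169).

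On the TGF-beta list 3 of 14 tested genes were lower and none higher (21.4%, against 2.41% of all tested genes called lower). The list did not fall as a group. Of the 14, 8 had a positive difference and 6 a negative one, with a median log2 difference of 0.04, beside 0.01 over all tested genes. CCN2, a matrix protein that also answers to YAP, had 147, 148 and 142 FPKM in the 8HQ libraries, against 185, 182 and 182 FPKM in the DMSO libraries, without overlap (log2 difference -0.33, SE 0.04, adjusted p = 5.98e-05). Its relative CCN1 had 13.2, 12.6 and 13.4 FPKM in the 8HQ libraries, against 17.1, 16.4 and 17.5 FPKM in the DMSO libraries, also without overlap (log2 difference -0.35, SE 0.05, adjusted p = 0.00105). TGFBR2, the receptor itself, averaged 75.4 ± 1.54 FPKM with 8HQ and 86.3 ± 0.141 FPKM with DMSO (log2 difference -0.19, SE 0.03, adjusted p = 0.00413).

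Of 11 tested NF-kB genes, 3 were lower and none higher (27.3%, against 2.41% of all tested genes called lower). The chemokine CCL20 had 224, 211 and 221 FPKM in the 8HQ libraries, against 273, 258 and 276 FPKM in the DMSO libraries, without overlap (log2 difference -0.30, SE 0.04, adjusted p = 0.000459), and the inhibitor TNFAIP3 (log2 difference -0.17, SE 0.04, adjusted p = 0.0249) and the subunit gene NFKB1 (log2 difference -0.19, SE 0.04, adjusted p = 0.0102) fell by smaller steps. Of 13 tested outputs of insulin and FOXO signalling, IGFBP1, which binds insulin-like growth factors (log2 difference -0.24, SE 0.05, adjusted p = 0.0114), and the pseudokinase TRIB1 (log2 difference -0.26, SE 0.04, adjusted p = 0.00371) were lower. The share called was 15.4%. TNFAIP3 was not called without 8HQ replicate 2, 8HQ replicate 3, DMSO replicate 1 or DMSO replicate 2 (adjusted p up to 0.0994), and NFKB1 and IGFBP1 not without DMSO replicate 1 (adjusted p = 0.0503 and 0.0511).

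The lists of liver genes are read against the 4.91% of all tested genes that were called. Of 27 tested secreted hepatocyte proteins, alpha-fetoprotein (AFP) was called lower, at 2113, 2137 and 2065 FPKM in the 8HQ libraries, against 2324, 2249 and 2174 FPKM in the DMSO libraries (log2 difference -0.10, SE 0.02, adjusted p = 0.0382), and no other was called. Of 17 acute phase genes none was called by limma, with 2 higher and 6 lower at an unadjusted p under 0.05. Among 19 tested liver transcription factors 3 were called (15.8%), where CEBPA was higher (log2 difference 0.20, SE 0.04, adjusted p = 0.0122) and PROX1 (log2 difference -0.23, SE 0.04, adjusted p = 0.00410) and NR0B2, a repressor in bile acid control (log2 difference -0.27, SE 0.05, adjusted p = 0.00905), lower. HNF4A, the hepatocyte master factor, had 84.3, 84.9 and 84.9 FPKM with 8HQ and 78.5, 78.8 and 81.3 FPKM with DMSO and was not called (log2 difference 0.09, SE 0.03, adjusted p = 0.0940). Of 17 tested cytochrome P450 and UGT genes 3 were higher (17.6%, against 2.49% of all genes), namely CYP4F11, a fatty acid hydroxylase with 12.8, 13.6 and 13.2 FPKM in the 8HQ libraries, against 8.49, 8.59 and 8.58 FPKM in the DMSO libraries (log2 difference 0.57, SE 0.05, adjusted p = 1.35e-05), CYP4F3 (log2 difference 0.26, SE 0.05, adjusted p = 0.00674) and their electron donor POR (log2 difference 0.15, SE 0.02, adjusted p = 0.00326). CYP4F genes are close copies, which makes the 2 values less sure. CYP1A1, the marker of the aryl hydrocarbon receptor, which many flat aromatic compounds bind, had 95.7, 95.7 and 96.3 FPKM in the 8HQ libraries, against 85.8, 90.1 and 89.7 FPKM in the DMSO libraries. The groups did not overlap, but the difference was small and not called (log2 difference 0.11, SE 0.04, adjusted p = 0.0801). On the aryl hydrocarbon receptor list NQO1 was the 1 call by limma of 6 tested (16.7%), with 3 higher and 1 lower at an unadjusted p under 0.05. In 4 of the 6 the groups did not overlap. The core of the receptor's element, GCGTG, was in 43.4% of the promoters of genes called higher, 46.6% of those called lower and 51.6% of all. AFP was called in 1 of the 6 fits with a library left out, the one without DMSO replicate 3 (adjusted p up to 0.147), and CEBPA not without 8HQ replicate 3 or DMSO replicate 1 (adjusted p up to 0.0603).

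The other stress lists are read against the same 4.91%. The unfolded protein response had 1 lower and none higher of 21 tested (4.76%), XBP1 (log2 difference -0.19, SE 0.03, adjusted p = 0.00209). Of 28 tested ATF4 targets 5 were called (17.9%). Of these 2 were higher, GDF15 (log2 difference 0.17, SE 0.03, adjusted p = 0.00538) and STC2, and 3 were lower, SLC38A2 (log2 difference -0.22, SE 0.04, adjusted p = 0.00359), PSAT1 (log2 difference -0.12, SE 0.03, adjusted p = 0.0197) and PSPH (log2 difference -0.17, SE 0.04, adjusted p = 0.0315). Of 19 tested heat shock genes HSPA1B was called higher (log2 difference 0.17, SE 0.05, adjusted p = 0.0394), its near-identical copy HSPA1A was not (log2 difference 0.16, SE 0.05, adjusted p = 0.0705), and HSPA1B was not called in any fit with 1 of the 6 libraries left out (adjusted p up to 0.145). Among 34 proteasome genes 2 were called (5.88%), and PSMD3 was higher (log2 difference 0.13, SE 0.03, adjusted p = 0.0137) and PSMC6 lower (log2 difference -0.14, SE 0.04, adjusted p = 0.0445). Of 26 lysosome and autophagy genes 3 were called (11.5%), and SQSTM1, the hydrolase GLA (log2 difference 0.39, SE 0.03, adjusted p = 3.81e-06) and the autophagosome protein GABARAPL1 (log2 difference 0.29, SE 0.07, adjusted p = 0.0220) were higher. Of 24 p53 targets 2 were higher, GDF15 and the DNA repair gene XPC (log2 difference 0.16, SE 0.04, adjusted p = 0.0450). Of 17 ferroptosis regulators 4 were called (23.5%), and HMOX1, FTH1 and the ubiquinone reductase AIFM2 (log2 difference 0.24, SE 0.03, adjusted p = 0.000744) were higher and ACSL4, which loads membranes with polyunsaturated lipids, was lower (log2 difference -0.16, SE 0.03, adjusted p = 0.0125). XBP1, GDF15, SLC38A2, SQSTM1, GLA, HMOX1, FTH1 and AIFM2 were called in each fit with 1 of the 6 libraries left out, but GDF15 was not called after quantile normalization (log2 difference 0.11, adjusted p = 0.112). STC2 was not called without 8HQ replicate 1, 8HQ replicate 3, DMSO replicate 1 or DMSO replicate 2 (adjusted p up to 0.0870), and PSAT1 was called only without 8HQ replicate 1 (adjusted p up to 0.0819). PSPH was called only without DMSO replicate 3 (adjusted p up to 0.136), and PSMD3 was not called without 8HQ replicate 1, 8HQ replicate 3 or DMSO replicate 1 (adjusted p up to 0.0678). PSMC6 was called only without DMSO replicate 2 (adjusted p up to 0.171), and GABARAPL1 was not called without 8HQ replicate 1, 8HQ replicate 3, DMSO replicate 1 or DMSO replicate 2 (adjusted p up to 0.103). XPC was called only without DMSO replicate 2 (adjusted p up to 0.153), and ACSL4 was not called without 8HQ replicate 3 or DMSO replicate 1 (adjusted p up to 0.0603).

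Genes of growth and metabolism gave 0 to 2 calls a direction in each list, to be read against the 4.91% of all tested genes called. Of 24 cholesterol genes, 28 G2 and M phase genes and 29 respiratory chain subunits none was called by limma, with 1, 2 and 2 higher and 2, 3 and 3 lower at an unadjusted p under 0.05. CHAF1A, a histone chaperone, was the 1 call of 28 S phase genes (log2 difference 0.18, SE 0.04, adjusted p = 0.0156), and RPS15 the 1 call of 36 ribosomal protein genes (log2 difference 0.10, SE 0.02, adjusted p = 0.0322). Of 18 tested genes of fatty acid synthesis 2 were called (11.1%). The sugar-sensing factor MLXIPL was higher (log2 difference 0.14, SE 0.03, adjusted p = 0.0164) and GPAM lower (log2 difference -0.13, SE 0.03, adjusted p = 0.0373). Of 15 tested genes on the fatty acid oxidation list 3 were called (20%). The mitochondrial fatty acid gate CPT1A (log2 difference 0.23, SE 0.05, adjusted p = 0.0114) and ACADVL (log2 difference 0.11, SE 0.03, adjusted p = 0.0450) were higher, and the fatty acid carrier FABP1 (log2 difference -0.16, SE 0.04, adjusted p = 0.0167) lower. RPS15, ACADVL and GPAM were not called in any fit with 1 of the 6 libraries left out (adjusted p up to 0.116, 0.140 and 0.125). CHAF1A was not called without 8HQ replicate 1, 8HQ replicate 3 or DMSO replicate 2 (adjusted p up to 0.0716), and MLXIPL was not called without 8HQ replicate 2 or DMSO replicate 3 (adjusted p up to 0.0745). CPT1A was not called without 8HQ replicate 2 (adjusted p = 0.0555), and FABP1 was not called without 8HQ replicate 2, DMSO replicate 1 or DMSO replicate 3 (adjusted p up to 0.0699).

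**Figure D4:**
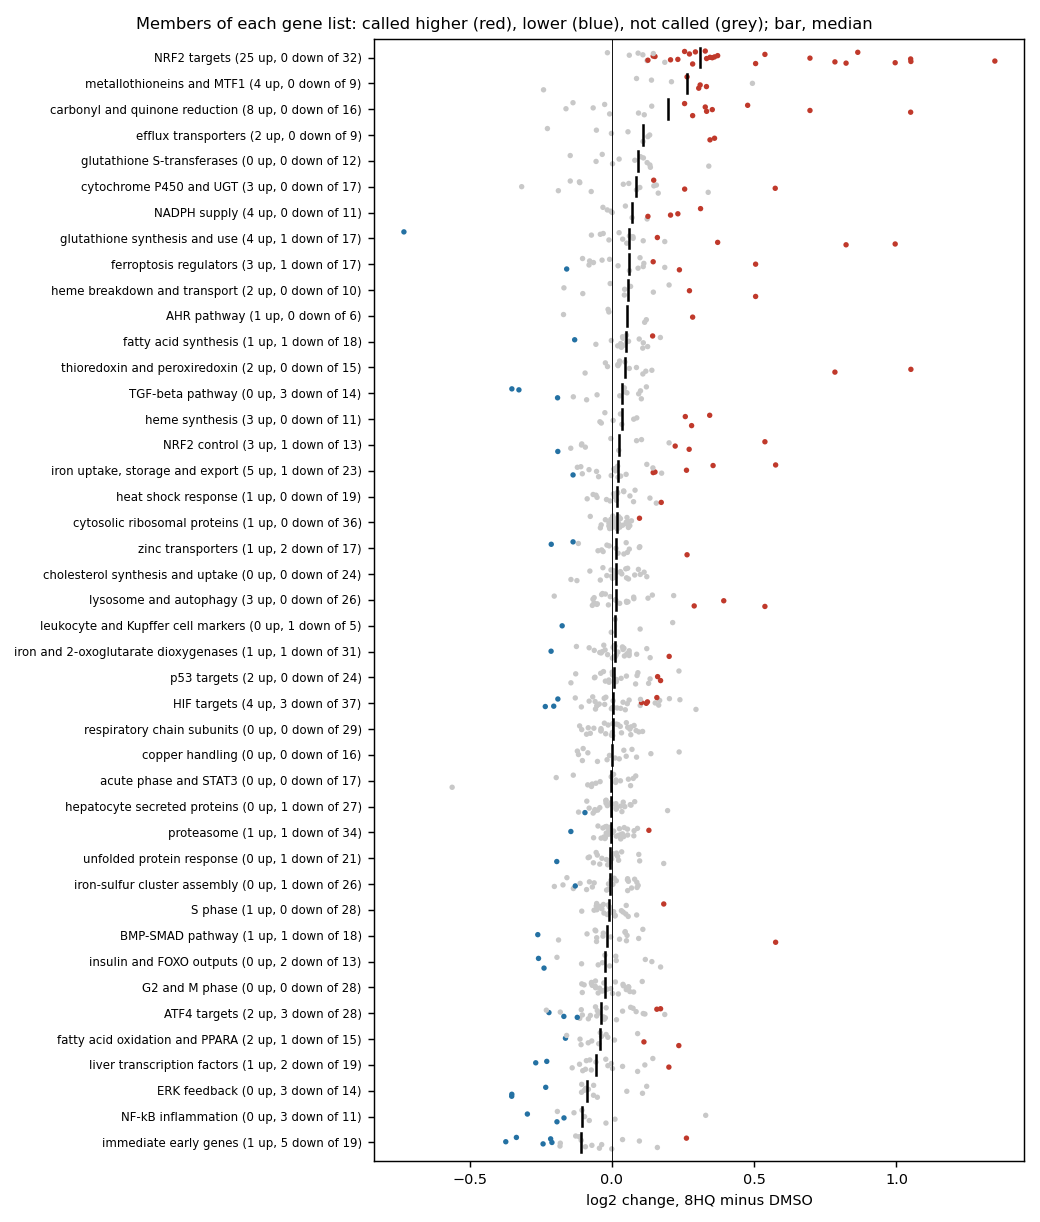
Each row is a gene list with at least 5 tested members, and each point is a member's log2 difference, 8HQ minus DMSO, red where called higher, blue where called lower and grey where not called, with a black bar at the list's median. The median of the NRF2 targets is 0.31, at the top, and that of the immediate early genes is -0.11, at the bottom, and most other medians lie near the 0.01 of all tested genes.

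Whether the same change was seen where FAC was present was asked in the 8HQ_FAC and FAC libraries, which share no library with 8HQ and DMSO. There 8968 genes were called (82.9%), 26.8% higher and 56.0% lower with 8HQ_FAC, and the median difference over all genes was -0.22, so the comparison depends on how libraries are scaled. The median was 0.00 after quantile normalization, 0.15 after median centring and -0.45 after rescaling to equal sums. Of the 270 genes higher with 8HQ alone, 80 (29.6%) were also higher with 8HQ_FAC than with FAC and 142 (52.6%) lower, where 26.8% and 56.0% of all genes were. These counts turned with the scaling. The same 270 gave 122 higher and 106 lower after quantile normalization (39.6% and 39.99% of all genes), 154 and 83 after median centring (51.2% and 30.6%), and 51 and 188 after rescaling to equal sums (13.4% and 72.5%). Of the 261 lower with 8HQ alone, 169 (64.8%) were also lower and 72 (27.6%) higher as deposited, 162 and 71 after quantile normalization, 121 and 117 after median centring, and 203 and 35 after rescaling to equal sums.

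Of the 25 called NRF2 targets, 14 were higher and 8 lower with 8HQ_FAC than with FAC as deposited, 11 and 9 after quantile normalization, 22 and 2 after median centring, and 11 and 12 after rescaling to equal sums. SRXN1 had 76.1, 79.3 and 90.7 FPKM in the 8HQ_FAC libraries, against 46.5, 47.6 and 49.8 FPKM in the FAC libraries, without overlap (log2 difference 0.76, adjusted p = 1.25e-09). OSGIN1 had 36.4, 37.7 and 42.8 FPKM in the 8HQ_FAC libraries, against 29.6, 27.3 and 29.3 FPKM in the FAC libraries (log2 difference 0.42, adjusted p = 1.01e-06). GCLC had 32.2, 31.4 and 37.4 FPKM in the 8HQ_FAC libraries, against 40.2, 40.3 and 40.8 FPKM in the FAC libraries, the opposite direction (log2 difference -0.26, adjusted p = 0.000265). The interaction, which is the change with 8HQ where FAC was present minus the change without it, was -0.92 for OSGIN1 (adjusted p = 1.34e-08), -1.08 for GCLC (adjusted p = 4.37e-09) and -0.99 for AKR1B10 (adjusted p = 1.75e-09), and kept its direction in these 3 under every scaling tried. Of the 25, 15 had a lower and 6 a higher interaction as deposited, 20 and 2 after quantile normalization, 10 and 10 after median centring, and 19 and 3 after rescaling to equal sums. As deposited, the interaction was called in 76.7% of all tested genes, 53.3% lower and 23.4% higher, and 3.25% passed 2-fold by limma's treat test. Over all tested genes 3881 were lower and 3741 higher after quantile normalization, 3043 and 5025 after median centring, and 7489 and 1220 after rescaling to equal sums. These genes were chosen by the difference that the interaction subtracts, so a smaller value with FAC is partly fixed by the choice.

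Genes that did not differ, or differed little, with 8HQ alone could differ by more where FAC was present. TFRC had 47.5, 47.5 and 46.6 FPKM in the 8HQ_FAC libraries, against 14.1, 12.6 and 13.4 FPKM in the FAC libraries (log2 difference 1.75, adjusted p = 6.23e-15), where 8HQ and DMSO overlapped. HMOX1 had 216, 217 and 248 FPKM in the 8HQ_FAC libraries, against 70.6, 70.7 and 72.3 FPKM in the FAC libraries (log2 difference 1.66, adjusted p = 1.93e-13), in the same direction as without FAC. CYP1A1 had 2.97, 3.08 and 3.31 FPKM in the 8HQ_FAC libraries, against 24.3, 23.4 and 24.2 FPKM in the FAC libraries (log2 difference -2.60, adjusted p = 2.05e-16), the opposite direction. Of the 19 immediate early genes, 15 were higher and 3 lower with 8HQ_FAC than with FAC, and 15 to 17 had a higher interaction under the scalings tried. EGR1 had 40.3, 45.6 and 40.9 FPKM in the 8HQ_FAC libraries, against 1.92, 1.99 and 1.85 FPKM in the FAC libraries (log2 difference 3.89, adjusted p = 2.05e-16), where it was called lower with 8HQ alone.

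**Figure D5:**
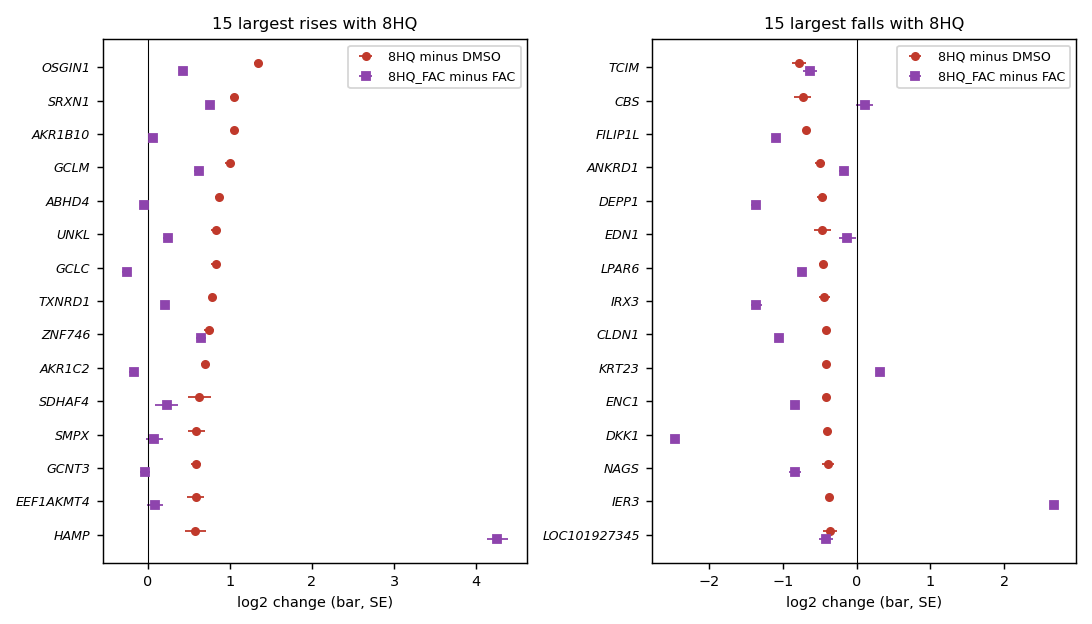
The log2 difference with its SE of 8HQ minus DMSO (red circles) and of 8HQ_FAC minus FAC (purple squares) for the 15 genes that rose most (left panel) and fell most (right panel) with 8HQ alone, under the rule for named genes. On the deposited scale most purple squares on the left lie nearer 0 than the red circles, except HAMP at 4.26, and on the right IER3 lies at 2.68 and DKK1 at -2.47.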

How the data were processed

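Gene expression was measured by RNA sequencing of 12 HepG2 libraries in 4 groups of 3, grouped by the treatment in the labels. The authors deposited 1 table of FPKM values per gene, with no counts. Bowtie 0.12.2 and the builds mm8 and mm9, both of mouse, are named in the submitters' processing notes; the human build, annotation, strand setting and quantifier are not stated, and no gene coordinates of the files are printed. Copies and overlapping genes may share reads.

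A gene was kept where 3 or more libraries held 1 FPKM or more, which left 10823 of 20030. Gene IDs matched RefSeq for 19741 genes, and 27 symbols that had become dates were restored through the ID. No pair of libraries was identical. Values were taken as log2(FPKM + 1), a scale that understates the change of low genes, and fitted in limma 3.58.1 (R 4.3.3) with an intensity trend and 1 mean per group over all 12 libraries, so that the groups share one estimate of the spread. The contrasts were 8HQ minus DMSO, 8HQ_FAC minus FAC and their difference (interaction), each with Benjamini-Hochberg adjusted p-values over all tested genes and a threshold of 0.05. The design had allowed for counts, and the form for FPKM was used. Depth is known only as an estimate from the steps of low values over 1239 genes, which limits statements on low genes. The fit was tested on simulated data. Python 3.11.15 was used for the tables and plots, with pandas 2.3.3, scipy 1.17.1, numpy 2.4.6 and matplotlib 3.10.9.

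The members and the gene lists were chosen with earlier results of these data known. Genes named are the 15 largest rises and falls among called genes of at least 1 FPKM without overlap, a panel of 21 metal and stress genes, up to 6 called members per list by adjusted p, members of counts of 5 or fewer, and the 10 smallest adjusted p in the interaction. AKR1C1, FOS, SLC7A11, TXN, PRDX1, HNF4A, LYZ, HBB, HBA1, MT1A and ALB were named outside that rule after their values were seen. Promoter sequences come from RefSeq (GRCh38.p14), found for 8950 tested genes by GeneID. Alternatives changed the scaling, the filter, the pseudocount, the variance model, the samples and the block.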

Additional observations from a re-analysis of the deposited data

Results flagged for a closer look

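For 16 of the named genes, the change with 8HQ where FAC was present differed from the change without FAC by more than 2-fold, by limma's treat test of the interaction against that size, which 3.25% of all tested genes passed (0.739% higher and 2.51% lower). Some of the named genes had been chosen for their small adjusted p in this same interaction, so that they passed is partly fixed by the choice. The count of 16 can therefore not be read against the 3.25%. All 16 kept their direction under each alternative tried. Means are ± SD over 3 libraries. Among genes of iron and heme signalling, the interaction was 3.68 for HAMP (31.1 ± 2.92 FPKM with 8HQ_FAC and 0.686 ± 0.293 FPKM with FAC, 5.17 ± 0.283 FPKM with 8HQ and 3.19 ± 0.810 FPKM with DMSO), 1.73 for TFRC (47.2 ± 0.537 FPKM with 8HQ_FAC and 13.4 ± 0.736 FPKM with FAC, 66.1 ± 0.965 FPKM with 8HQ and 65.1 ± 1.39 FPKM with DMSO) and 1.69 for ID1 (35.9 ± 1.58 FPKM with 8HQ_FAC and 10.9 ± 0.210 FPKM with FAC, 40.7 ± 0.543 FPKM with 8HQ and 42.4 ± 1.26 FPKM with DMSO).

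Signalling genes that were called lower with 8HQ alone had a positive interaction in several cases. It was 4.13 for EGR1 (42.2 ± 2.91 FPKM with 8HQ_FAC and 1.92 ± 0.0671 FPKM with FAC, 18.1 ± 0.311 FPKM with 8HQ and 21.6 ± 1.28 FPKM with DMSO), 4.52 for HBEGF (31.7 ± 2.05 FPKM with 8HQ_FAC and 0.776 ± 0.138 FPKM with FAC, 1.66 ± 0.322 FPKM with 8HQ and 2.30 ± 0.212 FPKM with DMSO), 3.05 for IER3 (285 ± 15.1 FPKM with 8HQ_FAC and 43.7 ± 1.59 FPKM with FAC, 114 ± 4.96 FPKM with 8HQ and 148 ± 2.72 FPKM with DMSO) and 2.23 for CCN1 (29.2 ± 2.43 FPKM with 8HQ_FAC and 7.21 ± 0.254 FPKM with FAC, 13.1 ± 0.412 FPKM with 8HQ and 16.997 ± 0.581 FPKM with DMSO). Stress genes also had a positive interaction, of 1.92 for GDF15 (361 ± 17.3 FPKM with 8HQ_FAC and 83.7 ± 1.02 FPKM with FAC, 315 ± 4.84 FPKM with 8HQ and 279.7 ± 6.10 FPKM with DMSO), 1.61 for HSPA1A (84.7 ± 0.495 FPKM with 8HQ_FAC and 24.2 ± 2.02 FPKM with FAC, 14.4 ± 0.288 FPKM with 8HQ and 12.8 ± 0.297 FPKM with DMSO), which has a near-identical copy, and 1.54 for MT2A (232 ± 5.29 FPKM with 8HQ_FAC and 71.7 ± 2.82 FPKM with FAC, 140.4 ± 17.1 FPKM with 8HQ and 127 ± 5.24 FPKM with DMSO).

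The interaction was negative for the other 6. It was -2.71 for CYP1A1 (3.12 ± 0.172 FPKM with 8HQ_FAC and 23.95 ± 0.503 FPKM with FAC, 95.9 ± 0.370 FPKM with 8HQ and 88.5 ± 2.37 FPKM with DMSO), -2.19 for TGFBR2 (14.5 ± 0.774 FPKM with 8HQ_FAC and 79.8 ± 0.233 FPKM with FAC, 75.4 ± 1.54 FPKM with 8HQ and 86.3 ± 0.141 FPKM with DMSO), -2.07 for DKK1 (10.8 ± 0.278 FPKM with 8HQ_FAC and 64.05 ± 2.62 FPKM with FAC, 41.02 ± 2.42 FPKM with 8HQ and 54.4 ± 0.877 FPKM with DMSO), -2.11 for SP5 (14.9 ± 0.803 FPKM with 8HQ_FAC and 75.98 ± 2.94 FPKM with FAC, 77.04 ± 2.82 FPKM with 8HQ and 86.4 ± 3.44 FPKM with DMSO), -1.71 for SOX9 (15.95 ± 0.658 FPKM with 8HQ_FAC and 62.7 ± 2.62 FPKM with FAC, 61.3 ± 1.01 FPKM with 8HQ and 70.4 ± 0.716 FPKM with DMSO) and -1.54 for MYC (16.4 ± 0.448 FPKM with 8HQ_FAC and 41.2 ± 0.994 FPKM with FAC, 56.4 ± 0.826 FPKM with 8HQ and 46.9 ± 1.42 FPKM with DMSO).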

How the results depend on the processing

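In 8HQ against DMSO 531 genes were called, and the totals under the other scalings, filters, pseudocount and variance model were 381 to 617. The lowest of these totals, with no filter, held 351 of the 531, and the highest, with quantile normalization, 481. With only the 2 groups compared in the fit, 420 were called. Against a fold of 1.5 by treat, 5 were called, 5 higher and 0 lower, and 2244 in 8HQ_FAC against FAC and 1894 in the interaction. Leaving out 1 of the 12 libraries gave 257 to 564 called, 130 to 297 higher and 127 to 271 lower. Without 8HQ replicate 1 and DMSO replicate 3, chosen after seeing the data, 231 were called, 117 higher and 114 lower. Same-numbered libraries of 8HQ and DMSO did not deviate together (r of -0.050, 0.006 and -0.035), so no effect shared by number was seen. With 3 libraries a group this cannot tell whether the samples were paired, and the labels do not say. With the replicate block, 450 were called, and with the block in the 2 groups alone, added after seeing the data, 362, of which 170 higher. Under the 3 scalings no named gene turned its direction in 8HQ against DMSO, and 6, 5 and 1 of 134 lost the call under median centring, quantile normalization and equal sums. With no filter 28 named genes lost it, and without the intensity trend 24.

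Some genes that were not called turned with a library left out: SLC11A2 took -0.035 to 0.026, TFR2 -0.127 to 0.019 (0.040 without both), SMAD6 -0.037 to 0.084, and NDRG1 -0.026 to 0.044 (0.030 without both). The interaction turned with the scaling. With median centring it was 0.080 for SRXN1, 0.28 for ZNF746, 0.080 for LPAR6, 0.32 for LOC101927345, 0.31 for SLC11A2, 0.36 for SMAD6, 0.27 for NDRG1 and 0.35 for NQO1. With quantile normalization it was 0.29 for ZNF746, 0.016 for SDHAF4, 0.031 for FILIP1L, 0.11 for LPAR6, 0.12 for LOC101927345, -0.16 for FTH1, -0.27 for FTL, 0.31 for SLC11A2, -0.065 for TF and 0.29 for SMAD6. With equal sums it was -0.079 for TCIM and -0.16 for SLC40A1. With a library left out it was -0.16 to 0.079 for LOC101927345 and -0.072 to 0.049 for SMAD6, and 0.010 for SMAD6 without both. The cause was not tested. With 3 libraries a group and no counts, changes of genes near 1 FPKM are the least certain.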

Other observations

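Among 276 KEGG pathway labels with at least 15 tested genes, looked at after the results were seen and given as counts with no test, the share called higher was largest in Mineral absorption, with 7 of 30. Next came the Pentose phosphate pathway with 5 of 22, Arachidonic acid metabolism with 4 of 24, Folate biosynthesis with 3 of 19, ABC transporters with 4 of 26 and Ferroptosis with 5 of 33. Over all tested genes 2.49% were called higher and 2.41% lower. The share called lower was largest in Arginine biosynthesis, with 3 of 15, namely ARG2, GPT2 and NAGS.

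Of 480 tested transcription factors with a family label, 12 were higher (2.5%) and 17 lower (3.54%), shares near those of all genes. SOX4, a factor of progenitor cells, had 3.01, 2.81 and 2.88 FPKM in the 8HQ libraries, against 3.71, 3.96 and 3.87 FPKM in the DMSO libraries (log2 difference -0.31, SE 0.06, adjusted p = 0.00842). SOX9, of bile duct and progenitor cells, had 61.1, 62.4 and 60.4 FPKM in the 8HQ libraries, against 70.4, 71.1 and 69.7 FPKM in the DMSO libraries (log2 difference -0.20, SE 0.04, adjusted p = 0.00528). Both were named after their values were seen, and in neither gene did the groups overlap.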
